A study of Mus musculus with 6 samples.

Results

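The interferon-gamma inducible GTPases are 2 related families of large GTP-binding proteins of cell-autonomous immunity. To describe their expression in regulatory T (Treg) cells differentiated with or without sorafenib (Sora), a multikinase inhibitor given for liver cancer, 10 genes were taken from the count table by symbol. They were 6 guanylate-binding proteins (Gbp2, Gbp3, Gbp4, Gbp5, Gbp6 and Gbp7) and 4 immunity-related GTPases (Irgm1, Igtp, Iigp1 and Ifi47). The table held 22939 genes, of which 13463 passed the filter on low counts, and all 10 genes were among them.

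RNA was sequenced from 3 libraries of untreated control cells (ctrl-Treg) and 3 libraries of cells given Sora (Sora-Treg). Naive CD4 T cells came from mice that carry GFP in the Foxp3 locus, on a C57BL/6J background. In both groups the cells were stimulated through CD3 and CD28 and polarised with TGF-β1, with antibodies that block IFN-γ and IL4 in the medium, and GFP-positive cells were sorted. The labels do not give the concentration of Sora, its time or the source of each replicate, so the p-values measure the spread between these libraries, which may be technical.

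Guanylate-binding proteins assemble on vacuoles and on bacteria in the cytosol, open them and help to engage inflammasomes. The immunity-related GTPases form an effector branch, which loads onto the vacuoles of parasites such as Toxoplasma, and a regulatory branch of Irgm proteins, which keeps the effectors inactive on the cell's own membranes. Transcription of both families is driven by IFN-γ, whose receptor signals through JAK1 and JAK2. Its signal reaches target promoters at the gamma-activated site (GAS) and at the interferon-stimulated response element (ISRE), the latter bound by IRF1 and IRF9. T cells themselves express these genes, and Irgm1 is known to limit the death of interferon-exposed CD4 T cells.

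The genes lie in a few clusters. In the RefSeq annotation of GRCm38.p6, Gbp5 (chr3:142496934-142522344), Gbp7 (chr3:142530336-142550151), Gbp3 (chr3:142560016-142573213) and Gbp2 (chr3:142620663-142638008) are 4 of the 5 guanylate-binding protein genes of chromosome 3. Gbp4 (chr5:105115767-105139586) and Gbp6 (chr5:105270702-105295871) lie in the cluster of 6 on chromosome 5. Irgm1 (chr11:48865245-48871420) and Ifi47 (chr11:49076587-49096987) flank 4 further immunity-related GTPase genes on chromosome 11. Igtp (chr11:58199556-58207592) stands beside its relatives Gm12250 and Irgm2 on the same chromosome. Iigp1 lies on another chromosome. All 10 are protein-coding genes, and the counts cover whole genes.

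The promoters of these genes are shown because they carry the sites through which IFN-γ is known to act. The GAS was searched as TTCNNNGAA and the ISRE as GAAANNGAA (TTCNNTTTC on the other strand), in RefSeq windows from 250 bases before to 50 bases after each transcription start. Windows were at hand for 7 of the 10 genes. A GAS was found in 3 of them and an ISRE in 6, and Ifi47 had neither. Over all 32851 windows of the table, 8.30% held a GAS, 8.56% an ISRE and 1.07% both. Examples of such matches, each in a stretch of 30 bases, are given 5′ to 3′ on the strand of the gene, with the matches in capitals. The ISRE matches of Gbp3 and of Irgm1 overlap each other in pairs. In the GENCODE annotation of the same build, the printed stretches of Gbp2 and Irgm1 overlap an exon of their gene, as does that from chr3:142496872, and the others printed overlap none.
Gbp5, ISRE (chr3:142496760-142496789, + strand): cttgtgtagtTTCAATTTCagtttagagaa
Gbp5, GAS (chr3:142496872-142496901, + strand): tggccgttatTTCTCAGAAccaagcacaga
Gbp7, a pair of GAS (chr3:142530229-142530258, + strand): tTTCCAGGAAaagcagaagcTTCTCAGAAa
Gbp7, ISRE (chr3:142530274-142530303, + strand): tgtgtgcagtTTCAGTTTCagttctccatc
Gbp3, ISRE (chr3:142559993-142560022, + strand): acacagtTTCAGTTTCTATTTCccagatcc
Gbp2, ISRE (chr3:142620595-142620624, + strand): ctcttttagtTTCACTTTCactgtcttaag
Irgm1, ISRE (chr11:48871428-48871457, - strand): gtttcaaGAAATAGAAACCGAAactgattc
Igtp, GAS and ISRE (chr11:58199506-58199535, + strand): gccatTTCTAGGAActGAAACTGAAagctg

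In Igtp the GAS and the ISRE stand 2 bases apart. The same arrangement, a GAS followed after 2 bases by GAAANNGAA, was present in Irgm2, Tgtp1 and Tgtp2. On either strand it was found in only 8 of all 32851 windows (0.0244%). Other orders or orientations of the 2 sites were not counted. The stretches of Irgm2, Tgtp1 and Tgtp2 are shown for comparison with that of Igtp. A match is a description of the sequence and not evidence of binding in these cells.
Irgm2 (chr11:58214897-58214926, + strand): gccatTTCCAGGAActGAAACTGAAagctg
Tgtp1 (chr11:48992310-48992339, - strand): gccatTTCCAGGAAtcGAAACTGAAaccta
Tgtp2 (chr11:49064269-49064298, - strand): gccatTTCCAGGAAtcGAAACCGAAaccta

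The 250 bases before the start of Gbp7, whose level fell, and of Igtp, whose call depended on the scaling, are printed whole. No annotated exon lies in either. In Gbp7 the ISRE began 52 bases before the start and both GAS lay farther out. In Igtp the pair of sites began 45 bases before the start.
Gbp7 (chr3:142530086-142530335, + strand): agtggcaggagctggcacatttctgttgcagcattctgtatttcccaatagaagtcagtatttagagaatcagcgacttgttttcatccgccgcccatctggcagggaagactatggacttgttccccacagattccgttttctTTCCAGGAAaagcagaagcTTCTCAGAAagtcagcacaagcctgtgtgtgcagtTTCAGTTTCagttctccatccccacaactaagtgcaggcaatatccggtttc
Igtp (chr11:58199306-58199555, + strand): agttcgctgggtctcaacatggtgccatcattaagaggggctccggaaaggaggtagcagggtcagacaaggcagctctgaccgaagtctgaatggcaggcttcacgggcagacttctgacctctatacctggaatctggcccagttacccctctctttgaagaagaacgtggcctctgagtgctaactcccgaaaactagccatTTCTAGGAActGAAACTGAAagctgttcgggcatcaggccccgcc

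Library totals ranged from 30727686 to 37717324 counts. Levels are given as CPM, the counts relative to the library total after TMM scaling in edgeR, and 3 counts, the floor for counting error alone, equalled 0.0762 to 0.0989 CPM. The T-cell genes Cd3e, Cd3d and Cd4 and the Treg genes Foxp3, Il2ra, Ctla4 and Ikzf2 were all abundant, with group means from 147 CPM upwards. Some libraries also held RNA of myeloid genes. Lyz2, the lysozyme of macrophages, was at 47.5, 47.9 and 12.6 CPM in ctrl-Treg libraries and at 5.64, 21.2 and 4.66 CPM in the Sora-Treg libraries. The 11 myeloid markers summed to 150 to 234 CPM in ctrl-Treg and 144 to 177 CPM in Sora-Treg libraries, with ctrl-Treg replicates 1 and 2 highest. Of the 10 myeloid markers tested, 7 were lower in Sora-Treg cells and none separated the groups without overlap. The B-cell markers summed to at most 16.4 CPM in any library, the CD8 and natural killer markers to at most 18.3 CPM, and the natural killer marker Klrb1c had at most 1 count. The type 1 helper markers summed to 36.1 to 39.1 CPM in ctrl-Treg and 109 to 118 CPM in Sora-Treg libraries, of which Il12rb2, a receptor chain for IL12, made up most in Sora-Treg cells (106 CPM), while Cxcr3 was lower and Tbx21 did not pass the test. The part of such RNA in the results was not tested. Without ctrl-Treg replicates 1 and 2, 2 of the 10 GTPase genes were called higher and 4 lower, in a fit that called 22.1% of all genes higher and 20.8% lower.

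The 10 genes did not move as 1 group. Sora-Treg cells held more Gbp2, by 1.66-fold, and less Gbp6, Gbp7, Gbp4, Irgm1 and Ifi47, by 1.17-fold to 1.88-fold. Gbp3, Gbp5 and Iigp1 did not pass the test. Igtp passed it with a small difference that depended on the scaling. An adjusted p under 0.05 was reached by 2 genes that were higher and 5 that were lower (edgeR quasi-likelihood test, Benjamini-Hochberg adjusted over all 13463 genes). In the whole table such a call was reached by 59.6% of genes, 29.7% higher and 29.9% lower, so the share of these genes that was called is near the background. With library totals alone 1 of the 10 was called higher and 7 lower, and the split over all genes was 21.3% higher against 41.7% lower. Log2 fold changes are given below with their standard error after the ± sign. None of the 10 was more than 2-fold lower, against 4.97% of all genes. The groups did not overlap for 7 of the 10 genes, against 63.7% of all genes. The median log2 fold change (Sora-Treg over ctrl-Treg) of the 10 was -0.18, with 8 below 0, and the median of all tested genes was -0.0035. In bulk RNA, fewer cells that express a gene and less RNA per cell cannot be told apart.

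**Figure D1:**
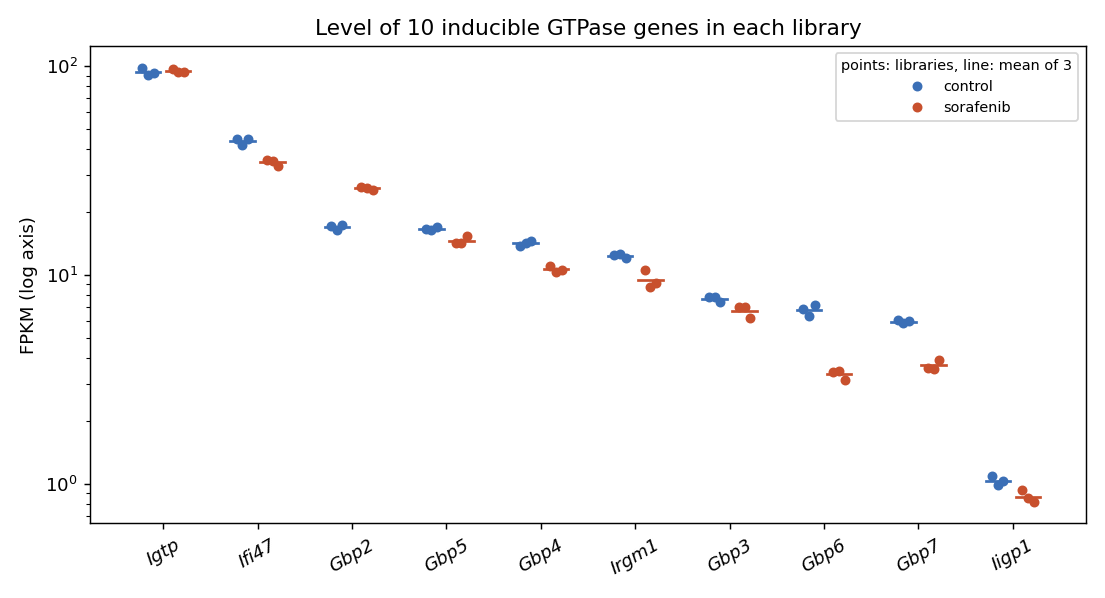
FPKM (log axis) of the 10 genes in each library, ordered by the ctrl-Treg mean; points are libraries (blue, control; red, sorafenib) and lines the means of 3. Gbp2 was higher in every Sora-Treg library, Igtp overlapped on this scale, and Gbp6 and Gbp7 exchanged places in the order.

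The levels were compared per gene length, as FPKM. Igtp, a regulator of the Irgm branch also called Irgm3, was the most abundant gene in both groups, at 94.2 ± 3.71 FPKM without and 94.7 ± 2.11 FPKM with Sora (SD, n = 3). Ifi47, also called Irgd, followed at 43.8 ± 1.61 and 34.6 ± 1.17 FPKM. In ctrl-Treg cells Gbp2 at 17.0 ± 0.515 and Gbp5 at 16.7 ± 0.328 FPKM came next, and their libraries overlapped. Gbp4, Irgm1, Gbp3, Gbp6 and Gbp7 then followed in that order without overlap of neighbours, from 14.2 ± 0.430 down to 5.98 ± 0.108 FPKM. Iigp1 was the least abundant, at 1.04 ± 0.0496 FPKM. In Sora-Treg cells Gbp2 at 26.0 ± 0.420 FPKM stood clear of Gbp5 at 14.6 ± 0.706 FPKM. There Gbp4 overlapped with Irgm1, and Gbp7 at 3.69 ± 0.207 FPKM was above Gbp6 at 3.35 ± 0.166 FPKM. The 10 genes summed to 220 ± 5.54 FPKM in ctrl-Treg and 205 ± 4.33 FPKM in Sora-Treg cells (exact permutation test, two-sided, p = 0.1, the smallest that 3 libraries against 3 allow). Each FPKM value was the count divided by a length and the library total, so it carries no TMM scaling. Scaling by library totals alone shifted the median log2 fold change of all tested genes by -0.115. How much of the difference between the summed levels came from that shift was not tested.

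Within the chromosome 3 cluster the neighbours moved unequally. Gbp2, which binds vacuoles and is among the GTPases most responsive to interferon, was at 40.3, 38.8 and 41.1 CPM in ctrl-Treg libraries and at 67.3, 66.4 and 65.3 CPM in the Sora-Treg libraries. Every Sora-Treg library was above every ctrl-Treg library. The log2 fold change was 0.73 ± 0.04 (edgeR adjusted p = 1.95e-12), and it was 0.61 when libraries were scaled by their totals alone.

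Gbp7, a guanylate-binding protein tied to oxidative and autophagic killing of bacteria, was at 32.7, 31.7 and 32.5 CPM in ctrl-Treg libraries and at 21.03, 20.8 and 23.0 CPM in the Sora-Treg libraries. Its groups were far apart compared with their spread. It fell by 0.58 ± 0.06 on the log2 scale (edgeR adjusted p = 4.05e-08). Gbp7 shares 10.5% of its 50-base stretches with a processed pseudogene. That pseudogene overlaps 637 exon bases of Gbp7 on the same strand and is not among the counted genes. How reads there were assigned is not known.

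Gbp3 and Gbp5 stayed close to their ctrl-Treg levels. Gbp3 was at 23.8, 24.0 and 22.5 CPM in ctrl-Treg and at 23.1, 23.2 and 20.6 CPM in Sora-Treg libraries, and Sora-Treg replicate 3 was the low value. The log2 fold change was -0.07, with a 95% confidence interval from -0.22 to 0.07 (edgeR adjusted p = 0.379). Gbp5, which promotes assembly of the NLRP3 inflammasome, was at 47.9, 47.8 and 49.5 CPM in ctrl-Treg and at 44.5, 44.6 and 48.4 CPM in Sora-Treg libraries. Sora-Treg replicate 3 lay among the ctrl-Treg values. Its log2 fold change was -0.08, with an interval from -0.18 to 0.02 (edgeR adjusted p = 0.181). Scaled by library totals alone, both were called lower, at -0.19 for each (edgeR adjusted p = 0.0223 for Gbp3 and 0.00143 for Gbp5).

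On chromosome 5, Gbp4 and Gbp6 were both lower. Gbp4 was at 68.8, 72.0 and 73.3 CPM in ctrl-Treg and at 60.0, 56.4 and 57.9 CPM in Sora-Treg libraries, without overlap. It fell by 0.30 ± 0.04 on the log2 scale (edgeR adjusted p = 3.00e-06). Short exon stretches of Gbp4 overlap with Gbp8 (61 bases) and Gbp9 (60 bases) on the same strand, and with the counts of all 3 genes summed the log2 fold change was -0.41 (edgeR adjusted p = 5.98e-10).

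Gbp6 showed the greatest fold among the 10 genes. It was at 32.1, 29.8 and 33.5 CPM in ctrl-Treg and at 17.2, 17.5 and 15.96 CPM in Sora-Treg libraries. The highest Sora-Treg library was far below the lowest ctrl-Treg library. The log2 fold change was -0.91 ± 0.07 (edgeR adjusted p = 1.05e-10), a 1.88-fold lower level. With library totals alone it was -1.03, just past 2-fold. Gbp6 shares 70.7% of its 50-base stretches with other genes, mostly the gene model Gm43302 and Gbp10, so its counts are uncertain. Gm43302 overlaps 1726 exon bases of Gbp6 on the same strand and is not among the counted genes. Summed with Gbp10, which shares sequence with it, the log2 fold change was -0.97 (edgeR adjusted p = 2.15e-11).

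**Figure D2:**
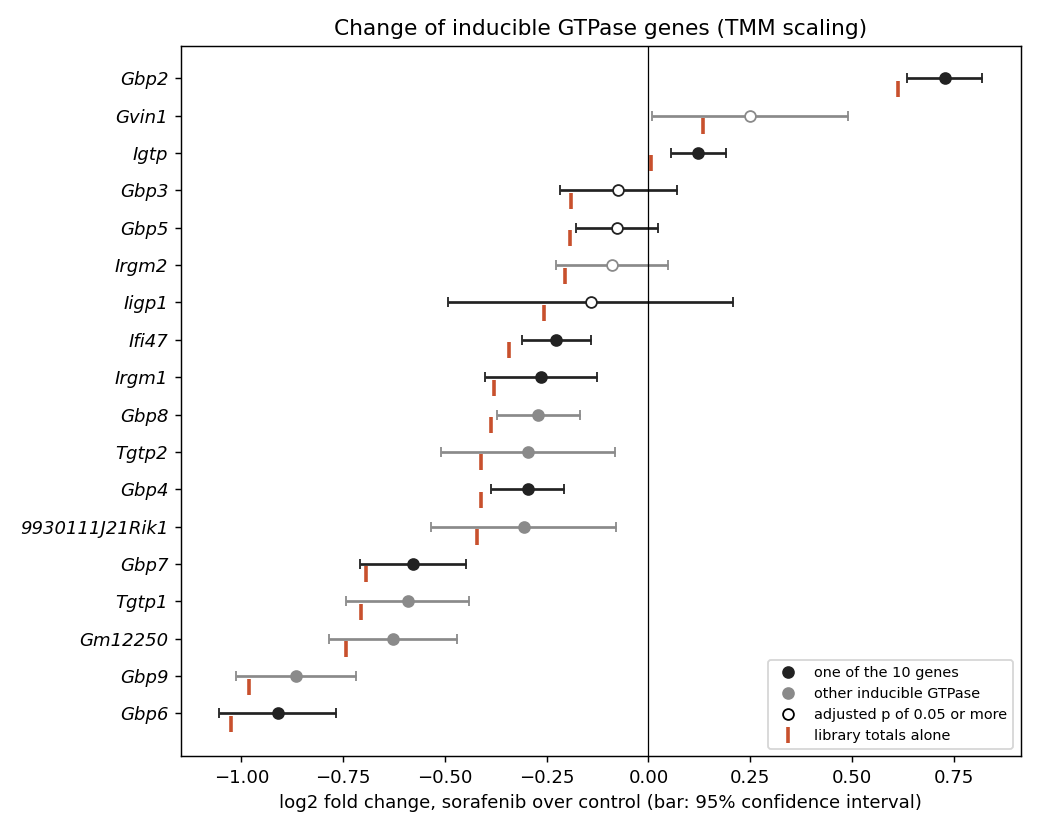
Log2 fold change (Sora-Treg over ctrl-Treg, TMM scaling) with 95% confidence interval for the 10 genes (black) and the other inducible GTPases (grey) whose mean log2 CPM reached 1; open circles did not pass an adjusted p of 0.05, and red ticks give the value with library totals alone. Gbp2 stood alone at 0.73, most others were below 0, and the tick of Igtp fell at 0.0072.

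Among the regulatory immunity-related GTPases, Irgm1 was lower and Igtp moved little. Irgm1, the regulator linked to T-cell survival and mitochondrial quality, was at 32.9, 33.4 and 32.0 CPM in ctrl-Treg and at 30.4, 25.3 and 26.2 CPM in Sora-Treg libraries. The groups did not overlap, but Sora-Treg replicate 1 lay near the ctrl-Treg values. It fell by 0.26 ± 0.07 on the log2 scale (edgeR adjusted p = 0.00154). Without ctrl-Treg replicates 1 and 2, the libraries with the most Lyz2, the log2 fold change was -0.23 and the call was lost (edgeR adjusted p = 0.0705).

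Igtp was at 191, 178 and 181 CPM in ctrl-Treg and at 204, 197 and 198 CPM in Sora-Treg libraries, without overlap. Its log2 fold change was 0.12 ± 0.03 (edgeR adjusted p = 0.00269). With library totals alone it was 0.0072 (edgeR adjusted p = 0.863), so the rise of Igtp rested on the scaling. Irgm2, the third regulator of mouse, shares 162 exon bases with Igtp and went from 25.4 ± 1.07 to 23.8 ± 1.18 CPM (SD, n = 3) with overlapping libraries (log2 fold change -0.09, edgeR adjusted p = 0.251). It was called lower with library totals alone (-0.21, edgeR adjusted p = 0.00978). With Igtp and Irgm2 summed the log2 fold change was 0.10 (edgeR adjusted p = 0.0108).

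Of the effectors, Ifi47 was at 86.5, 81.5 and 86.6 CPM in ctrl-Treg and at 74.0, 73.9 and 69.8 CPM in Sora-Treg libraries, without overlap. It fell by 0.23 ± 0.04 on the log2 scale (edgeR adjusted p = 5.66e-05). Iigp1 (chr18:60373616-60392634), also called Irga6, the best studied effector against Toxoplasma, had the lowest counts of the members, with 99 to 143 in each library. Its levels were 3.63, 3.32 and 3.44 CPM in ctrl-Treg and 3.36, 3.11 and 2.98 CPM in Sora-Treg libraries, which overlapped. The log2 fold change was -0.14, with a 95% confidence interval from -0.49 to 0.21 (edgeR adjusted p = 0.490). A change of either sign within that interval therefore remains possible.

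To compare the genes without any scaling of libraries, 7 ratios of FPKM were taken within each library. The log2 ratio of Gbp2 to Gbp5 was 0.0255 ± 0.0266 in the ctrl-Treg group (SD, n = 3), against 0.833 ± 0.0896 with Sora. That of Gbp2 to Gbp3 went from 1.14 ± 0.0869 to 1.95 ± 0.0818, and that of Gbp2 to Gbp7 from 1.51 ± 0.0251 to 2.81 ± 0.0989. Gbp2 therefore gained on Gbp3, Gbp5 and Gbp7. The ratio of Igtp to Irgm1 went from 2.93 ± 0.0632 to 3.32 ± 0.111, that of Igtp to Ifi47 from 1.10 ± 0.0390 to 1.45 ± 0.0454, and that of Igtp to Irgm2 from 3.65 ± 0.0101 to 3.86 ± 0.0975. The ratio of Gbp4 to Gbp6 went from 1.06 ± 0.0940 to 1.67 ± 0.0881. In all 7 the groups did not overlap, with a two-sided exact permutation p of 0.1 for each, before and after adjustment over the 7, which is the smallest that this design allows. The gene with the higher log2 fold change stands first in each pair, so every ratio rose by construction. The ratios restate the fold changes above and are no separate support for them.

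**Figure D3:**
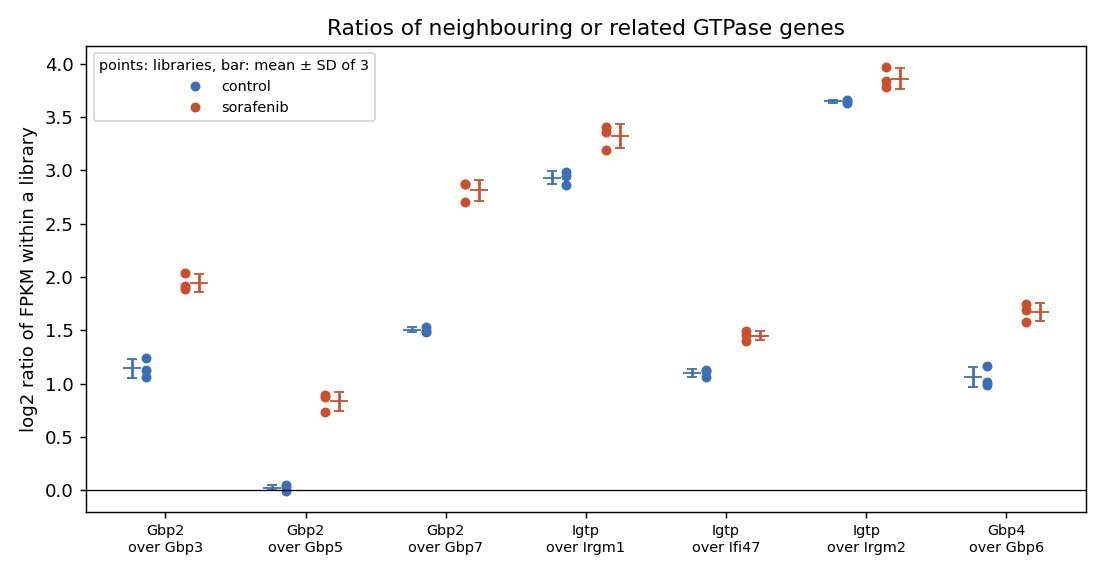
Log2 ratio of the FPKM of a pair of GTPase genes within each library (blue, control; red, sorafenib), with mean ± SD of 3 beside the points. Each of the 7 ratios was higher in every Sora-Treg library, most for Gbp2 over Gbp7 (1.51 to 2.81). The gene with the higher log2 fold change stands first in each pair, so the direction follows from the fold changes.

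As a share of the summed FPKM of the 10 genes, Gbp2 went from 7.72 ± 0.148% to 12.7 ± 0.116% and Igtp from 42.9 ± 0.777% to 46.3 ± 0.228% (SD, n = 3). Ifi47 went from 19.96 ± 0.320% to 16.9 ± 0.450%, and Gbp6 from 3.10 ± 0.145% to 1.64 ± 0.0737%. The groups did not overlap for these 4 shares, nor for those of Gbp4, Gbp7, Irgm1 and Iigp1. For Gbp3 and Gbp5 they did. In CPM the groups did not overlap for 63.7% of all genes. The shares are not independent, since a fall of some raises the others. Igtp itself was at 94.2 FPKM in ctrl-Treg and 94.7 FPKM in Sora-Treg cells.

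The other inducible GTPases gave the family background. Of 18 such genes listed, 14 were in the table and all 14 were tested. None was higher and 9 were lower, beside 29.7% and 29.9% of all genes, with a median log2 fold change of -0.30. On chromosome 5, Gbp9 went from 41.1 ± 2.64 to 22.6 ± 2.64 CPM (SD, n = 3; log2 fold change -0.87, edgeR adjusted p = 4.08e-10) and Gbp8 from 51.4 ± 1.53 to 42.6 ± 2.09 CPM (-0.27, edgeR adjusted p = 5.40e-05). Gbp10, with 7 to 93 counts in each library, was lower by 2.37 ± 0.35 on the log2 scale, but 84.1% of its stretches are shared, mostly with Gbp6. All 5 of the guanylate-binding protein genes counted on chromosome 5 were therefore called lower, beside 29.9% of all genes. They are not 5 separate measurements, since Gbp10 shares most of its sequence with Gbp6, and Gbp4, Gbp8 and Gbp9 share exon bases.

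On chromosome 3, Gbp2b, which lies next to Gbp2, was scarce. It had 28 to 68 counts in each library and a log2 fold change of -0.80 (edgeR adjusted p = 0.0333). This call was lost when any of ctrl-Treg replicates 1 and 3 or Sora-Treg replicates 1 and 3 was left out (edgeR adjusted p from 0.0520 to 0.157). Gbp2 was thus the only guanylate-binding protein gene of the 10 counted that was called higher.

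Around Ifi47, the T-cell-specific GTPases Tgtp1 and Tgtp2, which are near-identical effectors, were lower. Tgtp2 alone, at -0.30, lost its call without any of ctrl-Treg replicates 2 and 3 and Sora-Treg replicate 1 (edgeR adjusted p from 0.0579 to 0.0749). With their counts summed the log2 fold change was -0.50 ± 0.06 (edgeR adjusted p = 1.42e-07). Gm12250, also called Irgb10, went from 21.4 ± 0.268 to 13.8 ± 0.850 CPM (SD, n = 3; log2 fold change -0.63, edgeR adjusted p = 2.09e-07). It neighbours Igtp, and no 50-base stretch of it is shared. The neighbours 9930111J21Rik1 and 9930111J21Rik2 also share most of their sequence and were called lower. The second was at 1.88, 5.36 and 1.03 CPM in ctrl-Treg and at 0.890, 1.16 and 0.899 CPM in Sora-Treg libraries, so ctrl-Treg replicate 2 alone set its call. Without that library the log2 fold change was -0.58 (edgeR adjusted p = 0.186). The first lost its call without ctrl-Treg replicate 3 or Sora-Treg replicate 1 (log2 fold change -0.23 and -0.26), and summed they gave -0.50 (edgeR adjusted p = 0.000605).

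Gvin1, a very large interferon-inducible GTPase, was at 6.25, 6.02 and 6.11 CPM in ctrl-Treg and at 7.35, 6.68 and 7.81 CPM in Sora-Treg libraries. It missed the threshold (log2 fold change 0.25, edgeR adjusted p = 0.0679) and passed it without Sora-Treg replicate 2 (0.31, edgeR adjusted p = 0.0372), and 99.2% of its stretches are shared with its copies. Irgc1, F830016B08Rik and Gm4951 had at most 46 counts in any library and did not pass.

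The genes that carry the IFN-γ signal to these promoters were examined next. Of 19 genes, 10 were higher and 4 were lower, beside 29.7% and 29.9% of all genes. Their median log2 fold change was 0.09, which became -0.03 with library totals alone. Ifng itself had only 45 to 64 counts in each library, with a log2 fold change of 0.07 and a 95% confidence interval from -0.50 to 0.63 (edgeR adjusted p = 0.850). Ifngr1, the ligand-binding chain of the receptor, was at 127, 137 and 130 CPM in ctrl-Treg and at 363, 360 and 361 CPM in Sora-Treg libraries. It was the gene of this list with the largest change, at 1.46 ± 0.03 on the log2 scale (edgeR adjusted p = 1.29e-20). Ifngr2, the signaling chain, went from 54.7 ± 3.87 to 70.2 ± 0.428 CPM (SD, n = 3; log2 fold change 0.36, edgeR adjusted p = 8.03e-07).

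Downstream of the receptor the differences were smaller. Jak1 and Jak2 were called higher at 0.09 and 0.07, and with library totals alone both were below 0, at -0.0244 and -0.0415. Jak1 also lost its call without Sora-Treg replicate 3, and Jak2 without ctrl-Treg replicate 3 or Sora-Treg replicate 3. Irf1, the main factor of the ISRE in this response, was at 63.2 ± 2.39 and 67.1 ± 1.72 CPM (SD, n = 3; log2 fold change 0.09, edgeR adjusted p = 0.0880), with -0.0291 under library totals and a call without Sora-Treg replicate 1 (edgeR adjusted p = 0.0474). Irf9 was lower at -0.18 and Stat2 higher at 0.17 (edgeR adjusted p = 0.00108 and 0.000963). With library totals alone Stat2 was at 0.0574 and did not pass (edgeR adjusted p = 0.234). Without ctrl-Treg replicates 1 and 2, Irf9 was at -0.12 and Stat2 at 0.13, and the calls of Irf9, Stat2, Jak1 and Jak2 were not kept. Irf2, Pias1 and Usp18 did not pass, though with library totals alone Irf2 and Pias1 were called lower, at -0.14 and -0.19.

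Some inhibitors and other factors of the pathway moved more, most of all Socs3, Irf8 and Stat3. Socs3, a feedback inhibitor of STAT3 signaling, went from 211 ± 4.21 to 406 ± 9.58 CPM, and Socs1, the feedback inhibitor of the IFN-γ receptor, from 64.3 ± 5.70 to 78.7 ± 3.24 CPM (SD, n = 3). Their log2 fold changes were 0.95 ± 0.03 and 0.29 ± 0.05 (edgeR adjusted p = 6.08e-18 and 4.57e-05). Ptpn2, a phosphatase of JAK1, rose by 0.40 on the log2 scale, whereas the phosphatases Ptpn6 and Ptpn11 fell by 0.14 and 0.27. Irf8, which partners IRF1 at target promoters, went from 243 ± 5.35 to 475 ± 7.17 CPM, and Stat3 from 579 ± 9.72 to 994 ± 9.0 CPM (SD, n = 3). Each of these passed the test (edgeR adjusted p at most 0.000344).

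Other IFN-γ targets moved in both directions, to be read beside 29.7% of all genes called higher and 29.9% called lower. Of 21 tested, 4 were higher and 15 lower, with a median log2 fold change of -0.21, and without ctrl-Treg replicates 1 and 2 there were 4 higher and 10 lower. Serpina3g, a protease inhibitor, went from 27.9 ± 1.21 to 10.9 ± 0.424 CPM, Icam1, an adhesion ligand, from 138 ± 1.59 to 83.2 ± 6.92 CPM, and Tap1, the peptide transporter of class I antigen presentation, from 273 ± 3.01 to 223 ± 7.79 CPM (SD, n = 3). In the other direction, Nos2, the inducible nitric oxide synthase, went from 10.3 ± 0.406 to 37.2 ± 1.35 CPM, Upp1, a uridine phosphorylase, from 3.70 ± 0.384 to 15.1 ± 0.161 CPM, and B2m, the light chain of class I molecules, from 1180 ± 25.4 to 1400.3 ± 2.09 CPM. Each of these 6 passed the test (edgeR adjusted p at most 2.07e-08).

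Targets shared with type I interferon, which signals to the same ISRE, were mostly lower as well. Of 22 tested, 2 were higher and 17 lower, beside 29.7% and 29.9% of all genes, with a median log2 fold change of -1.25. Several of these genes were scarce. The median was -0.91 over the 19 genes that passed a filter of 1 CPM in at least 3 libraries. It was -0.59 over the 13 genes tested with limma on log2(FPKM + 1) after its filter. Without ctrl-Treg replicates 1 and 2 it was -1.13. Ifih1, the RNA sensor MDA5, had a log2 fold change of -1.42, Xaf1, an antagonist of the apoptosis inhibitor XIAP, of -1.09, Ifit2, which binds viral RNA, of -0.69 and Bst2, the tetherin that retains virions, of -0.51. Zbp1, a nucleic acid sensor, was higher at 1.22 and Dhx58, a partner of the RNA sensors, at 0.91. Each of these 6 passed the test (edgeR adjusted p at most 4.52e-07).

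**Figure D4:**
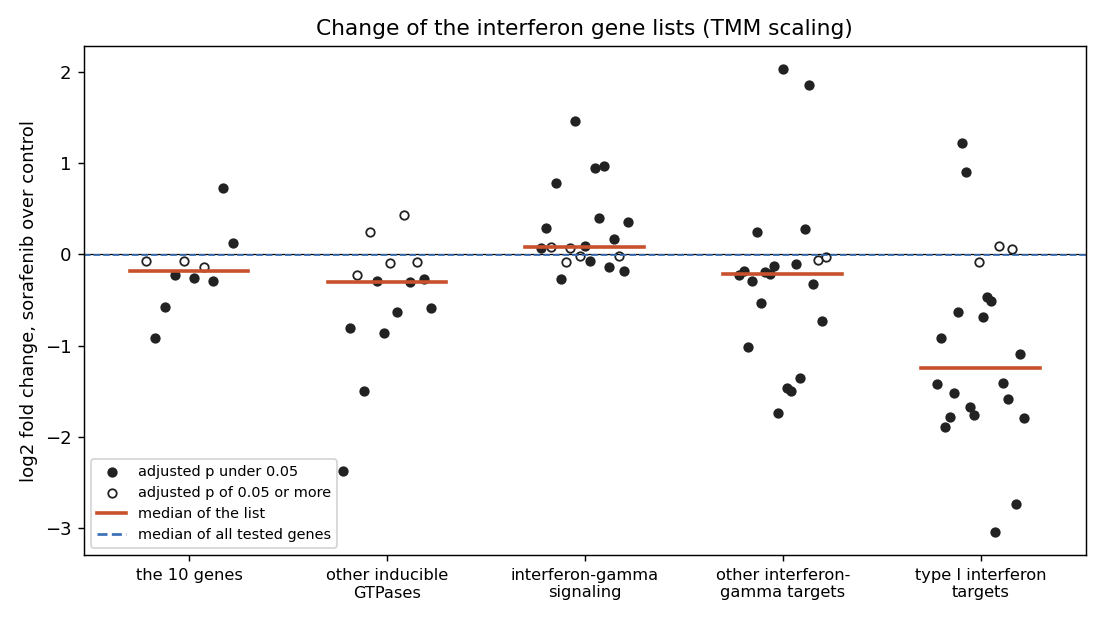
Log2 fold change (Sora-Treg over ctrl-Treg, TMM scaling) of each tested gene in 5 lists; filled points passed an adjusted p of 0.05, red lines are list medians and the dashed line is the median of all tested genes (-0.0035). The medians run from -0.18 for the 10 genes and -0.30 for the other GTPases to 0.09 for signaling, -0.21 for other targets and -1.25 for type I targets.

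Genes of proteins that act with these GTPases moved in both directions. Of 22 such genes, 8 were higher and 8 lower, beside 29.7% and 29.9% of all genes. With library totals alone 4 were higher, beside 21.3% of all genes. Among the autophagy conjugation genes that target GTPases to membranes, Atg3, Atg5 and Atg7 were lower, at log2 fold changes of -0.15, -0.18 and -0.26 (edgeR adjusted p = 0.0222, 0.0161 and 0.00450), and 6 of the others were higher. Of those, Gabarapl1 went from 57.5 ± 1.75 to 85.4 ± 0.489 CPM, Gabarap from 148 ± 2.08 to 190 ± 5.39 CPM and Atg16l1 from 54.7 ± 1.04 to 65.4 ± 1.99 CPM (SD, n = 3). Sqstm1, an autophagy adaptor, was higher by 0.16 on the log2 scale. Pycard, the inflammasome adaptor ASC, went from 37.3 ± 0.967 to 26.6 ± 2.32 CPM. These 5, from Gabarapl1 to Pycard, all passed the test (edgeR adjusted p at most 4.21e-05).

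The genes with the profile most like the mean of the 7 called members over the 6 libraries were Plagl2, Mapk9, Smap2, Psme3ip1 and Atp6v1c1, out of 9071 candidates. Their root mean square difference from that mean was 0.0123 to 0.0149 in log2 CPM. They were lower in Sora-Treg cells by 0.18 to 0.21 on the log2 scale. That follows from how they were picked, since the mean was itself lower, and 29.9% of all genes were called lower. The mean mixes members that rose with members that fell. The members themselves lay farther from their own mean, from 0.0308 for Ifi47 to 0.455 for Gbp2. Nearness to this mean is therefore no evidence of a profile shared with the GTPase genes.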

How the data were processed

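Groups and replicate numbers came from the sample titles. Raw counts and FPKM values were deposited by the authors for each gene and library. The methods of the study name alignment to GRCm38 with Bowtie2 and FPKM by expectation maximization, whereas the submitters' processing notes list GRCm39, fastp, HISAT2, HTSeq, R 3.2.0 and DESeq2. The annotation release and the treatment of strand are not given in the sources used here, so overlapping genes and close copies are uncertain. Each deposited FPKM value equalled the count divided by 1 length per gene and the library total (largest relative spread 1.64e-06), so it is no separate measurement.

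Counts were tested with the quasi-likelihood test of edgeR 4.0.16 (R 4.3.3), TMM scaling, filterByExpr, no covariate and Benjamini-Hochberg adjustment. The standard error was the one implied by the F statistic. CPM were TMM-scaled. The exact permutation tests used scipy 1.17.1. The method was tested on simulated data. Alternatives were other scalings and filters, robust fitting, DESeq2 1.42.0, limma 3.58.1 on log2(FPKM + 1) or log2(FPKM + 0.1), a fit blocked on the replicate number, leaving out each library in turn, and ctrl-Treg replicates 1 and 2 left out. Summing genes that share sequence was chosen after seeing the data. Same-numbered libraries did not deviate together (correlations of -0.0199, 0.0912 and 0.0486), so the numbers were not taken as pairs.

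The members, the gene lists and the tests were chosen with earlier results of these data known. All 10 members were named, with the genes of the lists of other inducible GTPases and of IFN-γ signaling, at most 6 genes by adjusted p from each further list if their mean log2 CPM reached 1, and the 5 genes nearest in profile whose mean log2 CPM reached 3. The Treg and marker genes of the opening, named as a check of the cells, and Tbx21 and Cxcr3 are marker list members. Atg3, Atg5 and Atg7 were named after their values were seen. Genes without counts here (Gbp11, Iigp1b, Gm4070, Gm1966, Cxcl11, Mx1, Mx2 and Trac) were not analysed, and a few other items are not reported here, though the counts of calls include them. Positions and promoter windows were taken from RefSeq (GRCm38.p6), exons and shared 50-base stretches from GENCODE M21 on the same build. Counts within a group differed by more than sampling noise (chi-square of 3.48 to 6.23 per degree of freedom), so no library is a copy of another.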

Additional observations from a re-analysis of the deposited data

How the results depend on the processing

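Calls of Gbp2, Gbp4, Gbp6, Gbp7 and Ifi47 kept their direction and their side of the threshold in all alternatives run, and leaving out any single library left 2 members higher and 5 lower. The fit with the replicate block also gave 2 members higher and 5 lower, although same-numbered libraries did not deviate together. Library totals alone shifted all genes by a median of -0.115 (log2), and the FPKM values carry that scaling too. Under library totals and all 3 FPKM fits, members called higher fell to 1, since Igtp was at 0.0072, 0.0082, 0.0083 and 0.0082 (adjusted p = 0.863, 0.835, 0.836 and 0.888), and partners called higher were 4. Under the same 4, Jak1 turned to -0.0244, -0.0243, -0.0246 and -0.0243, Jak2 to -0.0415, -0.0403, -0.0414 and -0.0403, Irf1 to -0.0291, -0.0267, -0.0279 and -0.0267, and Ifng to -0.0486, -0.0335, -0.0641 and -0.0335. Stat2 lost its call in these 4, at 0.0574, 0.0533, 0.0565 and 0.0533 (adjusted p = 0.234, 0.220, 0.218 and 0.219). Gbp3 was called lower at -0.19 with library totals and at -0.17 and -0.19 with limma on log2(FPKM + 1) and log2(FPKM + 0.1). Gbp5 was called lower at -0.11 with upper quartile scaling, at -0.19 with library totals, and at -0.18, -0.19 and -0.18 in the FPKM fits. With library totals or log2(FPKM + 0.1), 1 member (Gbp6) passed 2-fold. The FPKM fits (pseudocount 1, pseudocount 0.1, pseudocount 1 unfiltered) called 2357, 2350 and 2577 genes higher and 4876, 4867 and 4973 lower (library totals, 2862 and 5614), and 274, 373 and 274 genes more than 2-fold higher and 189, 371 and 185 more than 2-fold lower, against 3994 higher, 4028 lower, 848 and 669. Irgm2 was called lower at -0.21 with library totals and at -0.18, -0.20 and -0.18 in the FPKM fits, Irf2 at -0.14 with library totals, and Pias1 at -0.12 with upper quartile scaling, -0.19 with library totals and -0.17, -0.19 and -0.17 in the FPKM fits. Signaling genes called higher were 6 in the unfiltered one, and type I targets called lower were 9 and 9 in the filtered ones. Without control replicates 1 and 2 together, Irgm1 was at -0.23 (adjusted p = 0.0705), signaling genes called lower were 2, partners called lower were 4, other IFN-γ targets called lower were 10, Tgtp2 lost its call (-0.36, adjusted p = 0.0663), and F830016B08Rik, Gm4951 and Usp18 turned to 0.91, 0.49 and 0.25. With 1 library left out, values ranged from -1.18 to 0.11 for F830016B08Rik, from -0.29 to 0.31 for Gm4951, from -0.17 to 0.20 for Ifng, from -0.0499 to 0.0036 for Irf2 and from -0.13 to 0.0514 for Usp18, and other GTPases called higher from 0 to 1. The cause of these changes was not tested.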
